A study of Mus musculus with 14 samples.

Results

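Amino acid transporter families are described here in islet cells sorted by beta-galactosidase activity. The set was chosen by gene symbol, as every gene of the families Slc1a, Slc3a, Slc6a, Slc7a, Slc36a, Slc38a and Slc43a, leaving out Slc38a4, Slc38a5 and Slc7a11. It held 58 of the 52459 genes of the deposited count table.

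Most amino acids cannot cross a cell membrane unaided, and solute carriers move them, each family with its own driving force and substrates. Some use the sodium gradient to pull amino acids in, whereas others exchange one amino acid for another. The second kind includes heterodimers of an SLC3 heavy chain and an SLC7 light chain. In pancreatic islets, amino acids add to the stimulus for insulin secretion, and in many cell types a shortage of them raises transporter transcripts through the kinase GCN2 and the transcription factor ATF4. The names of several genes are broader than their cargo, because SLC6 also holds carriers of creatine and taurine and Slc43a3 carries purine nucleobases.

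RNA was sequenced from dispersed islets of male C57BL/6J mice aged 7 months, an inbred strain with no allele or drug added in either group. Flow sorting on acidic beta-galactosidase activity, a lysosomal activity widely used as a sign of cellular senescence, gave 7 positive and 7 negative libraries, numbered 1 to 7 in both. The sort did not select beta cells, so a library can hold every islet cell type, and the labels do not say whether numbers stand for separate animals. P-values here thus reflect variation among libraries, part of which may be technical.

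Total counts ranged from 15585779 to 24577025 in positive and from 11060144 to 23045934 in negative libraries, and transporter genes took 0.464 ± 0.039% of counts in positive and 0.421 ± 0.044% in negative libraries (SD, n = 7 each). Levels are given as CPM, counts of a gene scaled to a common library size. Summed markers of beta cells were abundant, at 99636 to 129914 CPM in positive and 103511 to 154521 CPM in negative libraries. Of the 10 tested none was called with group only, and 4 were lower with libraries paired by replicate number (below, the block). Over all genes tested, 6.4% were higher and 1.63% lower with group only, and 11.8% higher and 7.77% lower with the block. Among other cell types, the 7 alpha cell markers and the PP cell marker were called in neither fit, and of 6 ductal and 2 Schwann cell markers none was called with group only, while the block called 1 ductal marker higher and 1 lower and 1 Schwann marker lower. All 19 endothelial markers tested were higher in positive cells, with sums of 438 to 1465 CPM in positive and 8.50 to 82.5 CPM in negative libraries, and Cldn5 was at 0 in every negative library. All 20 macrophage markers tested were higher, and 19 with the block. Their sums were 161 to 1397 CPM in positive and 23.6 to 40.4 CPM in negative libraries. Positive libraries 6 and 7 had the highest sums of both. A marker scarce in negative libraries can have enough counts to be tested through positive libraries alone, which fixes part of its direction. Of 13 acinar markers 5 were lower, and 11 with the block, with sums of 58.0 to 959 CPM in positive and 202 to 1551 CPM in negative libraries. Of 11 pericyte and fibroblast markers 5 were higher in either fit, and none was lower. Negative library 3 held 1466 CPM of these markers, against 16.1 to 73.3 CPM in the other negative and 52.2 to 252 CPM in the positive libraries. In bulk samples such as these, fewer cells of a type and less RNA per cell cannot be told apart.

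Of the 58 transporter genes, 31 had enough counts to be tested, 22 had between 1 and 88 counts over all 14 libraries, and 5 had none. The 5 were Slc6a7, Slc6a16, Slc7a12, Slc7a13 and Slc36a3. A count of 0 allows a mean level of up to 0.0221 CPM over the positive libraries and 0.0248 CPM over the negative ones, counting 3 reads per group and covering counting error only. The most read of the untested genes was Slc38a3, a glutamine carrier, with 50 counts in positive and 38 in negative libraries. Next came Slc1a7, a retinal glutamate transporter, with 36 counts in positive and 21 in negative libraries. Among carriers known from neurons and glia, the dopamine transporter Slc6a3 had 1 count in positive and 0 in negative libraries, and the serotonin transporter Slc6a4 had 5 in positive and 3 in negative ones. The glial glutamate transporter Slc1a2 had 20 counts in positive and 14 in negative libraries.

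Per kilobase of exon, the heavy chain and its main partner were the most abundant transcripts of the set. Slc3a2, the heavy chain shared by most light chains, averaged 190 ± 39.7 CPM per kb over all 14 libraries (SD). Slc7a5, the light chain LAT1 for large neutral amino acids such as leucine, averaged 106 ± 18.4 CPM per kb. Slc38a2, a sodium-coupled carrier of small neutral amino acids, averaged 66.2 ± 15.5 CPM per kb. Slc3a2 lay above Slc7a5, and Slc7a5 above Slc38a2, in 14 of 14 libraries. Slc38a2 lay above Slc38a10, at 58.4 ± 5.70 CPM per kb, in 8 of 14 libraries only, so the order of those neighbours is within their spread. The next were Slc7a14, of the cationic branch of SLC7, at 51.4 CPM per kb, Slc6a6, the taurine transporter, at 38.2, and Slc7a1, the widely expressed cationic carrier, at 31.8. The least abundant gene tested was Slc6a15, a brain carrier of neutral amino acids, at 0.0707 CPM per kb. The first 7 ranks were the same when levels were divided by the longest transcript in place of all exon bases.

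**Figure D1:**
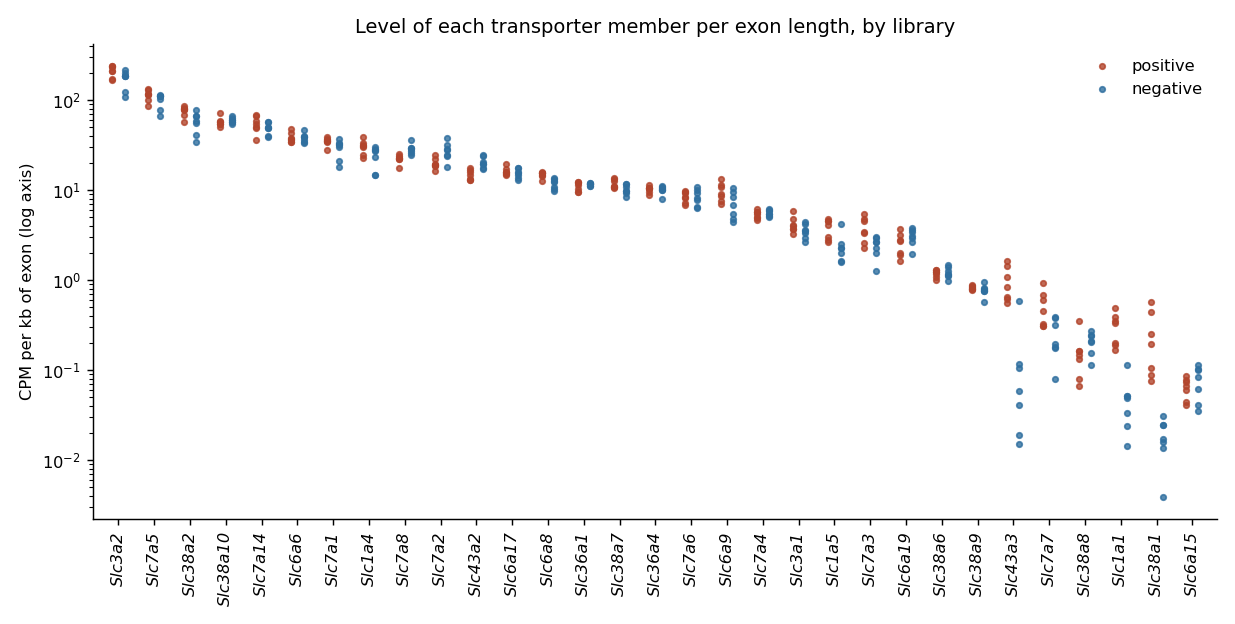
Level of the 31 transporter genes tested, as CPM per kb of exon on a log axis, with 1 point per library, positive to the left of negative for each gene. Levels run over more than 3 powers of 10, and the widest gaps between the groups are at Slc1a1, Slc38a1 and Slc43a3, near the low end.

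Neighbouring genes of 1 family differed widely in counts, given here as reads and not as levels per length. On chromosome 15, Slc38a1 and Slc38a2 lie 44.5 kb apart and had 592 and 149787 counts over all libraries. On chromosome 2, Slc43a1, a carrier of large neutral amino acids, and Slc43a3 lie 73.0 kb apart and had 14 and 647 counts. On chromosome 11, Slc36a3 and Slc36a2 had 0 and 3 counts beside 16319 for Slc36a1, a proton-coupled carrier of lysosomes. On chromosome 13, Slc6a18, a kidney carrier, had 2 counts, and Slc6a19, the main carrier of neutral amino acids in kidney and gut, had 3574 counts 1.72 kb away.

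The comparison asked which transporter transcripts set positive cells apart from negative ones. In the fit with group as the only term, 7 of the 31 genes tested were called, against 8.03% of all 16350 genes tested. Of these, 4 were higher in positive cells (12.9%), against 6.4% of all genes, and 3 were lower (9.68%), against 1.63%. With replicate number as a block, 16 were called, against 19.6% of all genes, of which 13 were higher (41.9%), against 11.8% of all genes, and 3 were lower (9.68%), against 7.77%. The median log2 fold change was 0.17 over the 31 transporters and 0.00 over all genes. The higher calls fell to SLC1, SLC6, SLC38 and SLC43 with 1 each and the lower calls to SLC7 with 2 and SLC43 with 1, whereas SLC3 and SLC36 had none. The block added 3 calls in SLC7, 2 in SLC1, 2 in SLC38, and 1 each in SLC3 and SLC6, all higher. Slc38a1, Slc1a1 and Slc43a3 passed the count filter through their positive libraries, which fixes part of their direction. They are 3 of the 4 genes called higher with group only. The shares of higher genes and the median thus rest in part on them. Positive and negative values did not overlap for 2 of the 31 genes, against 3.86% of all genes, and both were higher in positive cells, against 3.5%. Those 2 were Slc38a1 and Slc1a1, so the same limit holds for them.

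**Figure D2:**
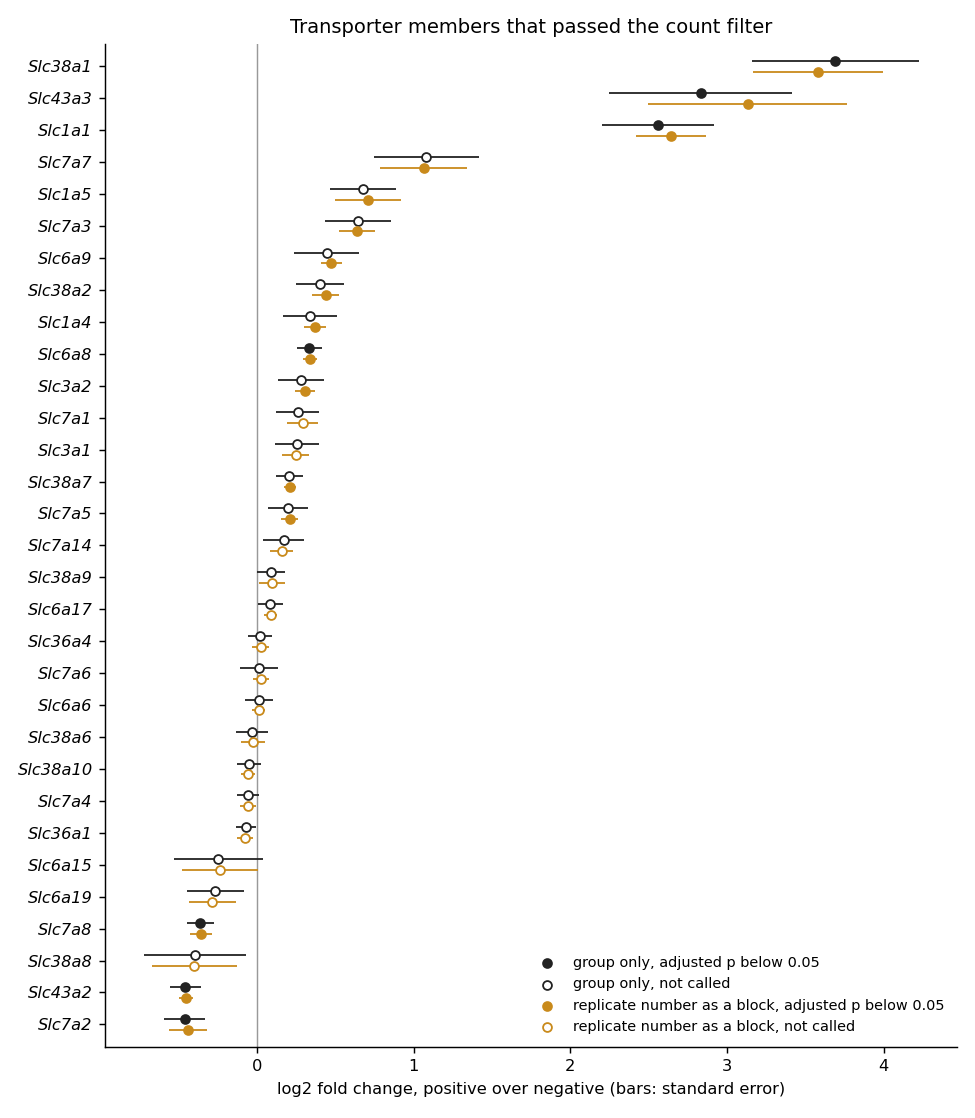
Log2 fold change, positive over negative, of the 31 transporter genes tested, with standard errors, for the fit with group only (black) and with replicate number as a block (orange). Filled points have an adjusted p below 0.05, which 4 genes above 0 and 3 below reach in the fit with group only, and 13 above and 3 below with the block.

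The 3 largest changes were in scarce transcripts. Slc38a1, at 96571418 to 96642913 of chromosome 15 (GRCm38), encodes SNAT1, a sodium-coupled carrier of glutamine and other small neutral amino acids. It had 1.29, 3.38 and 9.94 CPM in positive libraries (lowest, median, highest), against 0.0674, 0.299 and 0.530 CPM in negative libraries. Every positive library lay above every negative one, and positive libraries 6 and 7, at 9.94 and 7.66 CPM, were the highest. The log2 fold change was 3.69 ± 0.53 (SE, edgeR quasi-likelihood test, adjusted p = 0.000337), from 553 counts in positive and 39 in negative libraries. Without the 4 libraries numbered 6 and 7 it was 2.92 (adjusted p = 0.00244), smaller by more than 1.5 times on the linear scale.

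Slc1a1, at 28835049 to 28913960 of chromosome 19, encodes EAAT3, the sodium-coupled transporter of glutamate, aspartate and cysteine. It had 1.40, 2.75 and 4.03 CPM in positive libraries, against 0.120, 0.405 and 0.950 CPM in negative libraries. The groups did not overlap, and all 7 pairs were higher, by 1.79 to 3.71 on the log2 scale. The fitted log2 fold change was 2.56 ± 0.36 (adjusted p = 0.000237). Of its exon bases 31.86% overlap 4430402I18Rik on the other strand, and since the strand setting of the counting is not given, reads of the pair cannot be told apart. That gene had 2.09 ± 0.353 CPM in positive and 2.26 ± 0.514 CPM in negative libraries (SD, n = 7 each; log2 fold change −0.12, adjusted p = 0.738).

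Slc43a3, at 84936579 to 84958509 of chromosome 2, encodes a purine nucleobase transporter. It had 2.50, 3.78 and 7.20 CPM in positive libraries, against 0.0674, 0.265 and 2.58 CPM in negative libraries. Negative library 3 alone reached the positive range, and the other negative libraries stayed at or under 0.522 CPM. Its log2 fold change was 2.83 ± 0.59 (adjusted p = 0.0059) and 3.92 without negative library 3. Without the libraries numbered 6 and 7 the call was lost with group only (2.36, adjusted p = 0.145) and with the block (2.80, adjusted p = 0.124).

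**Figure D3:**
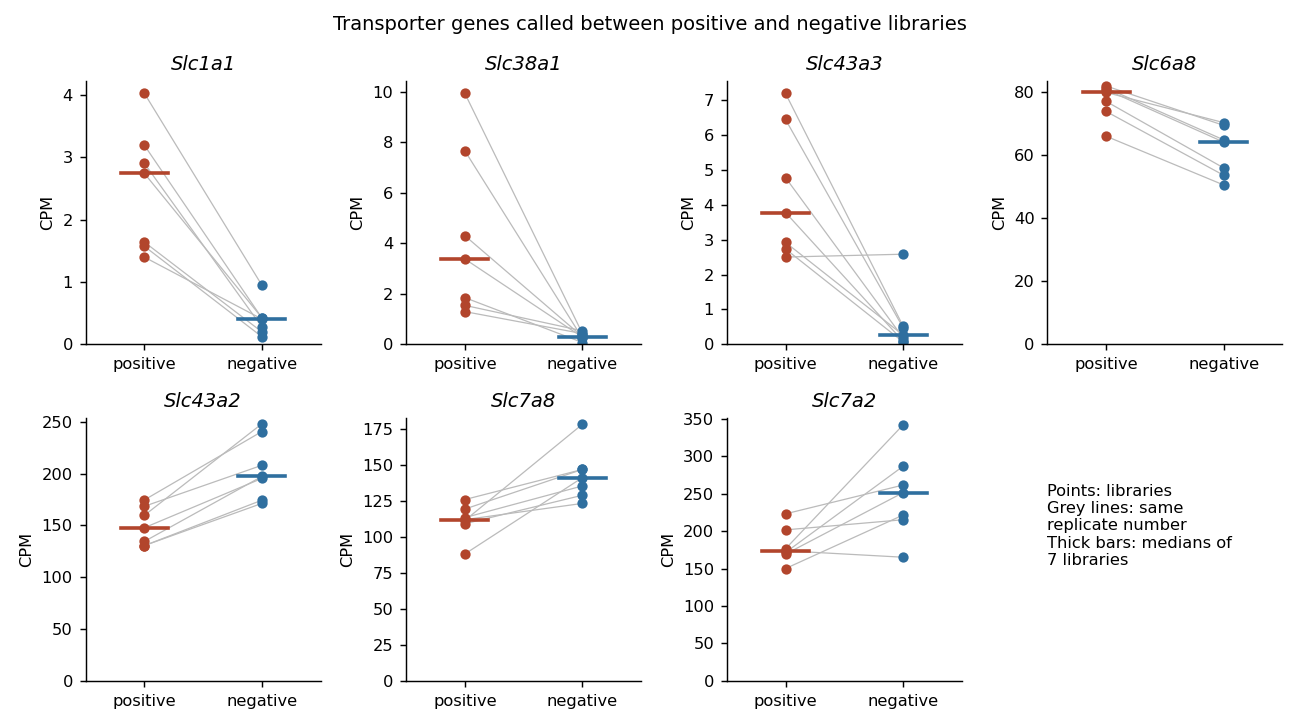
CPM of the 7 transporter genes called in the fit with group only, with 1 point per library, positive left of negative, grey lines joining libraries with the same number and thick bars at the medians. Slc1a1 and Slc38a1 do not overlap between the groups, and negative library 3 stands at 2.58 CPM for Slc43a3.

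These scarce transcripts are set here beside markers of cells other than beta cells, library by library. Slc38a1 and Slc43a3 were highest in positive libraries 6 and 7, which had 1465 and 1404 CPM of summed endothelial markers and 1397 and 987 CPM of summed macrophage markers. The other positive libraries had 438 to 1113 CPM of endothelial and 161 to 234 CPM of macrophage markers. Slc1a1 was also highest in positive libraries 6 and 7, at 3.20 and 4.03 CPM. Negative libraries 6 and 7 had 82.5 and 74.1 CPM of endothelial markers, the highest negative sums. There Slc38a1 had 0.423 and 0.237 CPM, Slc43a3 0.475 and 0.522 CPM, and Slc1a1 0.423 and 0.950 CPM. The highest negative value of Slc38a1, 0.530 CPM, was in negative library 4, with 11.4 CPM of endothelial markers. Slc38a1 had 39 counts over all negative libraries together, so differences among those libraries rest on few reads. The 2.58 CPM of Slc43a3 in negative library 3 stood beside the 1466 CPM of pericyte and fibroblast markers there. Positive library 3 had the highest positive sum of those markers, 252 CPM, and the lowest positive value of Slc43a3, 2.50 CPM. Delta cell markers followed the same groups, with 309 to 2198 CPM in positive and 81.8 to 435 CPM in negative libraries. Of the 3 tested, 2 were higher, against 6.4% of all genes. The part of these cell types in the 3 changes was not tested.

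**Figure D4:**
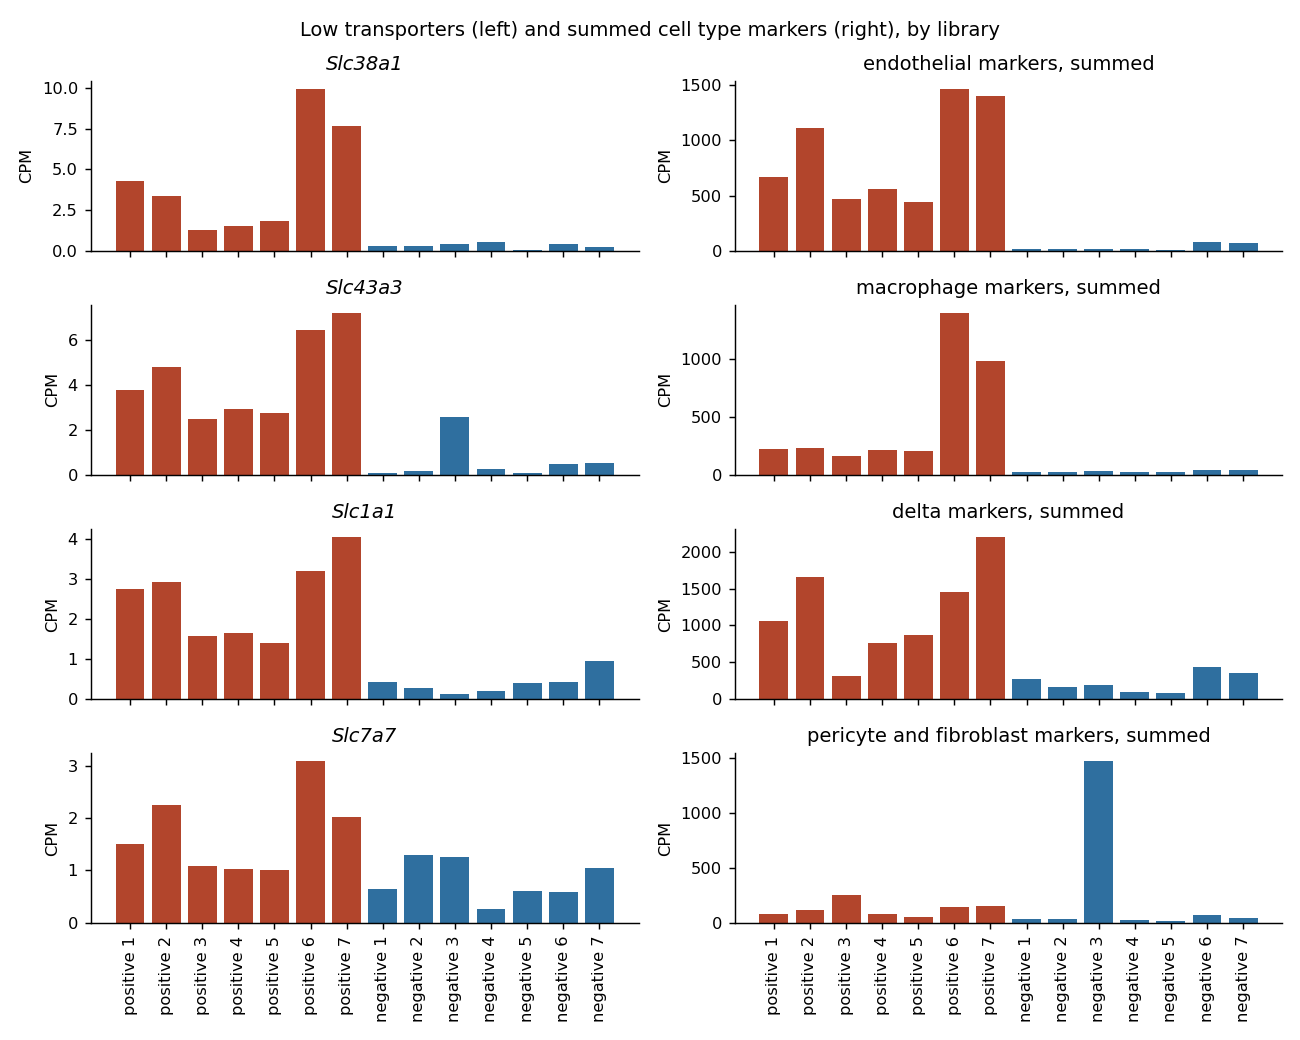
CPM by library of Slc38a1, Slc43a3, Slc1a1 and Slc7a7 (left) and summed CPM of endothelial, macrophage, delta, and pericyte and fibroblast markers (right), with the 7 positive libraries left of the 7 negative ones. Positive libraries 6 and 7 carry the highest values of Slc38a1, Slc43a3 and both endothelial and macrophage markers, and negative library 3 stands out for pericyte and fibroblast markers and Slc43a3.

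Among abundant transcripts, Slc6a8 was the gene called higher without the block. It lies at 73673150 to 73682502 of chromosome X and encodes the creatine transporter. It had 66.0, 79.9 and 82.0 CPM in positive libraries, against 50.5, 64.1 and 70.3 CPM in negative libraries. The groups overlapped, but all 7 pairs were higher, by 0.18 to 0.46 on the log2 scale. In the fit the log2 fold change was 0.33 ± 0.08 (adjusted p = 0.0143), and without the libraries numbered 6 and 7 the adjusted p was 0.0834 with group only and 0.00346 with the block.

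The 3 lower genes were carriers of neutral or cationic amino acids at high levels. Slc43a2, at 75531694 to 75577575 of chromosome 11, encodes LAT4, a facilitated carrier of branched-chain and other large neutral amino acids. It had 130, 148 and 174 CPM in positive libraries, against 171, 197 and 248 CPM in negative libraries. The ranges touched at their ends, and all 7 pairs were lower, by log2 ratios from −0.64 to −0.30. Its log2 fold change was −0.46 ± 0.10 (adjusted p = 0.00625). Of its exon bases 9.18% overlap the antisense gene Gm45606, which had 5.34 ± 1.40 CPM in positive and 8.49 ± 3.12 CPM in negative libraries (adjusted p = 0.0738). Without the libraries numbered 6 and 7, Slc43a2 had an adjusted p of 0.0511 with group only and 0.00139 with the block.

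Slc7a8, at 54722209 to 54781946 of chromosome 14, encodes the light chain LAT2, an exchanger of neutral amino acids that works with Slc3a2. It had 88.1, 112 and 126 CPM in positive libraries, against 123, 141 and 178 CPM in negative libraries. The groups overlapped narrowly, and all 7 pairs were lower. Its log2 fold change was −0.36 ± 0.09 (adjusted p = 0.0136). Without the libraries numbered 6 and 7 its adjusted p was 0.0971 with group only and 0.0349 with the block.

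Slc7a2, at 40862396 to 40922308 of chromosome 8, encodes CAT2, a carrier of arginine, lysine and ornithine. It had 150, 174 and 223 CPM in positive libraries, against 165, 251 and 342 CPM in negative libraries. The groups overlapped widely, negative library 1 was the highest, and 6 of 7 pairs were lower. The log2 fold change was −0.46 ± 0.13 (adjusted p = 0.0407). This call was lost without negative library 1, 2 or 4 or without positive library 1, 2, 3, 6 or 7 (adjusted p 0.0588 to 0.0870), and with the block without number 1, 2, 3, 4 or 6 (0.0514 to 0.0925). Beside the lower genes, the summed acinar markers were also lower in positive libraries. With the block 4 of 10 beta cell markers were lower, against 7.77% of all genes. Their part in these results was not tested.

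The block added 9 genes, all higher in positive cells. Among the abundant ones, Slc3a2, the heavy chain, lies at 8706882 to 8723369 of chromosome 19. It had 582, 736 and 849 CPM in positive libraries, against 380, 652 and 759 CPM in negative libraries. The groups overlapped, negative libraries 1 and 2 were the lowest, and every positive library exceeded the negative one of its number. The log2 fold change was 0.28 ± 0.15 with group only (adjusted p = 0.294) and 0.31 ± 0.06 with the block (adjusted p = 0.00647). Its partner Slc7a5, on chromosome 8, had 316, 428 and 484 CPM in positive libraries, against 249, 405 and 423 CPM in negative libraries. Its ratio within pairs ran from 0.00 to 0.37 on the log2 scale, with a log2 fold change of 0.21 ± 0.05 with the block (adjusted p = 0.0192) and 0.20 ± 0.13 with group only (adjusted p = 0.397). The call of Slc7a5 was lost without number 2 (adjusted p = 0.0730) or number 4 (0.0641). LAT1 and LAT2, the 2 most read light chains, thus had fold changes of opposite sign, at 0.21 for Slc7a5 and −0.36 for Slc7a8 with the block.

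Slc38a2 encodes SNAT2, the sodium-coupled carrier whose transcript is known to rise when amino acids are short. It had 502, 697 and 760 CPM in positive libraries, against 304, 519 and 682 CPM in negative libraries. Negative libraries 1 and 2 were again the lowest, the groups overlapped, and all 7 pairs were higher, by 0.16 to 0.97. The log2 fold change was 0.44 ± 0.09 with the block (adjusted p = 0.00529) and 0.40 ± 0.15 with group only (adjusted p = 0.138). With the block and without the libraries numbered 6 and 7, the adjusted p was 0.0554. Slc38a7, a lysosomal exporter of glutamine and asparagine, had 43.5, 45.7 and 56.4 CPM in positive libraries, against 34.7, 40.6 and 48.8 CPM in negative libraries. All 7 pairs were higher within a narrow range, 0.17 to 0.33, and the log2 fold change with the block was 0.21 ± 0.04 (adjusted p = 0.00313; 0.181 with group only).

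Both neutral amino acid exchangers of SLC1 were called with the block. Slc1a4, which encodes ASCT1, a carrier of serine, alanine and cysteine, lies at 20302180 to 20332713 of chromosome 11. It had 89.1, 122 and 151 CPM in positive libraries, against 57.5, 106 and 119 CPM in negative libraries. Negative libraries 1 and 2, at 57.5 and 57.8 CPM, were far below the others, and all 7 pairs were higher. The log2 fold change was 0.37 ± 0.07 with the block (adjusted p = 0.00385) and 0.34 ± 0.17 with group only (adjusted p = 0.281). Slc1a5, which encodes the glutamine exchanger ASCT2, had 11.2, 17.2 and 20.1 CPM in positive libraries, against 6.54, 9.40 and 17.7 CPM in negative libraries. The highest negative value was that of library 3, whose pair alone was lower (−0.66), and the other 6 pairs were higher by 0.78 to 1.07. Its log2 fold change was 0.71 ± 0.21 with the block (adjusted p = 0.0478; 0.0633 with group only), and this call was lost without any number except 3 (0.103 to 0.122). Without negative library 3, the fit with group only gave 0.87 (adjusted p = 0.00243). Negative library 3 also held 1466 CPM of pericyte and fibroblast markers. Positive library 3 had the highest positive sum of those markers, 252 CPM, and the lowest positive value of Slc1a5, 11.2 CPM. The part of those markers in the level of Slc1a5 was not tested.

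The remaining 3 genes had middling or low levels. Slc6a9, the glycine transporter GlyT1, had 35.8, 46.3 and 68.9 CPM in positive libraries, against 22.5, 35.4 and 54.0 CPM in negative libraries. The spread within each group was wide, yet all 7 pairs were higher, by 0.20 to 0.79, and the log2 fold change was 0.48 ± 0.07 with the block (adjusted p = 0.000541; 0.229 with group only). Of its exon bases 27.8% overlap Ccdc24 on the other strand, whose log2 fold change was −0.14 (adjusted p = 0.674). Slc7a3, the cationic carrier CAT3, had 8.53, 12.9 and 20.4 CPM in positive libraries, against 4.72, 9.90 and 11.3 CPM in negative libraries, with 7 of 7 pairs higher and a log2 fold change of 0.64 ± 0.11 with the block (adjusted p = 0.00298; 0.0778 with group only). Its sign was thus opposite to that of its relative Slc7a2, and the groups overlapped for both. Slc7a7, the light chain of the exchanger of cationic and neutral amino acids, had 1.02, 1.5 and 3.08 CPM in positive libraries, against 0.265, 0.640 and 1.30 CPM in negative libraries. Positive library 6 was the highest, 6 of 7 pairs were higher, and the log2 fold change was 1.06 ± 0.28 with the block (adjusted p = 0.0201; 0.0596 with group only). That call was lost without number 4 (0.0509) or 6 (0.0570). The macrophage markers, high in the same library 6, are given above, and their part in the level of Slc7a7 was not tested.

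**Figure D5:**
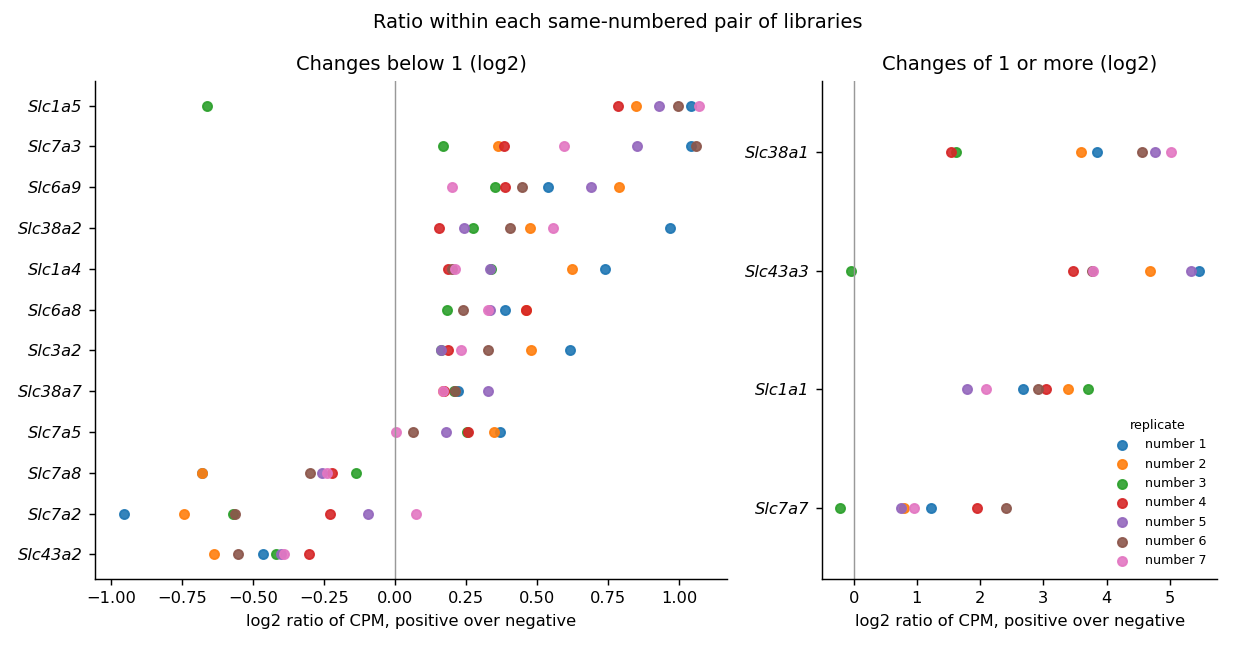
Log2 ratio of CPM, positive over negative, within each of the 7 same-numbered pairs, for the 16 transporter genes called with replicate number as a block, in 2 panels with different ranges on the x axis. Pairs 1 and 2 have the largest ratios of Slc1a4 and Slc3a2, and pair 3 lies below 0 for Slc1a5, Slc43a3 and Slc7a7.

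Within pairs, 11 of the 31 genes were higher in all 7, against 11.1% of all genes, and 2 were lower in all 7, against 6.93%. Besides those called, Slc7a1 was higher in all 7, with 318, 406 and 443 CPM in positive libraries, against 207, 364 and 420 CPM in negative libraries (log2 fold change 0.29 with the block, adjusted p = 0.0665). Pair 1 held its largest ratio, 0.97, and the other 6 lay between 0.08 and 0.40.

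Other transporters were called in neither fit, and a missing call does not show that levels were equal. Slc6a6, the taurine transporter, had 289, 315 and 397 CPM in positive libraries, against 278, 326 and 388 CPM in negative libraries, with a log2 fold change of 0.01 (95% interval −0.17 to 0.20, adjusted p = 0.953). Slc36a4, a proton-coupled carrier and the most read of SLC36, had 57.3, 68.0 and 73.9 CPM in positive libraries, against 51.3, 66.8 and 73.3 CPM in negative libraries (0.02, −0.14 to 0.18, adjusted p = 0.918). For both the ranges lay nearly on top of each other. Slc7a14 had 349, 526 and 668 CPM in positive libraries, against 378, 483 and 554 CPM in negative libraries (0.17, −0.11 to 0.45, adjusted p = 0.497). Slc38a9, the arginine-sensing carrier of lysosomes that acts on mTORC1, had 13.1, 13.6 and 14.6 CPM in positive libraries, against 9.48, 13 and 15.9 CPM in negative libraries (0.09, −0.10 to 0.28, adjusted p = 0.621). The positive values of Slc38a9 lay wholly inside the negative range. The other 10 genes tested and not called were Slc3a1, Slc6a15, Slc6a17, Slc6a19, Slc7a4, Slc7a6, Slc36a1, Slc38a6, Slc38a8 and Slc38a10, with log2 fold changes from −0.39 for Slc38a8 to 0.26 for Slc3a1.

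Genes that work with these transporters were counted from 4 lists. Of 17 other amino acid transporters tested, 1 was higher, against 6.4% of all genes, a share near the background. It was Slc15a3, a peptide and histidine carrier of endosomes and lysosomes known from macrophages. It had 5.05, 7.36 and 36.6 CPM in positive libraries, against 0.742, 1.20 and 1.92 CPM in negative libraries, with no overlap (3.44 ± 0.55, adjusted p = 0.00101). With the block 3 of the 17 were higher, against 11.8% of all genes, and 1 lower, against 7.77%. Of 36 genes through which mTORC1 senses amino acids, 3 were called, 2 higher and 1 lower, against 8.03% of all genes, with a median log2 fold change of 0.00. With the block 5 were higher and 4 lower, against 11.8% and 7.77% of all genes. Fnip2, a partner of folliculin, was higher (0.45 ± 0.13, adjusted p = 0.0346), as was Rragc, a Rag GTPase (0.17 ± 0.05, adjusted p = 0.0474), while Gatsl2, of the arginine sensor family, was lower (−0.25 ± 0.07, adjusted p = 0.0353). These 3 calls were lost on leaving out single libraries, 9 of the 14 for Fnip2, 13 for Rragc and 6 for Gatsl2, and held with the block without any 1 number. With the block and without the libraries numbered 6 and 7, the adjusted p of Rragc was 0.0867, and with other size factors (RLE) and group only it was 0.0523. With no filter on low counts it was 0.231 for Rragc and 0.0614 for Fnip2. Of 22 genes of glutamate, branched-chain and arginine metabolism, 1 was higher, against 6.4% of all genes, and with the block 3 were higher and 1 lower, against 11.8% and 7.77%. The gene called with group only was Got1, the cytosolic aspartate aminotransferase. It had 72.0, 86.6 and 98.9 CPM in positive libraries, against 50.6, 59.9 and 76.3 CPM in negative libraries (0.46 ± 0.10, adjusted p = 0.0084).

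In the list of the amino acid response through GCN2 and ATF4, 1 of 25 genes was higher with group only, against 6.4% of all genes, and none was lower. With the block 15 were higher, against 11.8% of all genes, and 1 was lower, against 7.77%. The median log2 fold change was 0.20. Ddit4, an inhibitor of mTORC1 signalling, had 75.5, 93.0 and 103 CPM in positive libraries, against 53.3, 60.8 and 79.1 CPM in negative libraries (0.46 ± 0.10, adjusted p = 0.00781), and without the libraries numbered 6 and 7 the adjusted p was 0.0814 with group only and 0.00945 with the block. Of the 15 genes higher with the block, only a few were named, after their values were seen, and the 1 lower gene was not. Those named were Trib3, a pseudokinase (0.42, adjusted p = 0.0159), Psat1, of serine synthesis (0.30, adjusted p = 0.000633), and Asns, the asparagine synthetase (0.16, adjusted p = 0.0340). Atf4 itself was higher in all 7 pairs, against 11.1% of all genes, and its adjusted p with the block was 0.0525.

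Because transporters such as Slc1a4 are known targets of ATF4, RefSeq promoter windows (GRCm38.p6, 250 bases before to 50 after each start) were searched on both strands for the C/EBP-ATF composite letters TGATGNAA, whose reverse complement is TTNCATCA. The letters were in 3.97% of all 32851 windows, or in windows of 4.51% of genes. Of the 40 transporters with a window, 3 held them, Slc1a4, Slc7a7 and Slc6a21, the last with 1 count in all. Among the 7 genes higher with the block that have a window, 2 held them, and 1 of these, Slc7a7, had 5 windows searched. In the ATF4 list 6 of 22 held them, but that list was chosen as genes of this response and is no independent comparison. The lysosomal CLEAR core TCACGTGA was in 0.974% of windows and, among transporters, in that of Slc36a1 only. The stretches from 250 bases before to 10 after the start are shown for carriers with the letters that only the block called higher. These are Slc1a4 (chr11:20332704-20332963, minus strand) and Slc7a7 (first window, chr14:54417935-54418194, minus strand). For contrast follow Slc1a1 (chr19:28834885-28835144, plus strand) and the lower gene Slc43a2 (first window, chr11:75531444-75531703, plus strand), which held no match. Capitals mark the composite, which starts 4 bases before the start in Slc1a4, on the opposite strand, and 141 and 1 bases before it in Slc7a7.
Slc1a4: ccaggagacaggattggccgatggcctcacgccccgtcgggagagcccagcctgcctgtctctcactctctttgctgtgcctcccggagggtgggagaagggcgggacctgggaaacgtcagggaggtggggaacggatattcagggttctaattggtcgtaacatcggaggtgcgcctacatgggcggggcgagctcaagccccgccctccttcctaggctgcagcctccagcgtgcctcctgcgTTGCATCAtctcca
Slc7a7: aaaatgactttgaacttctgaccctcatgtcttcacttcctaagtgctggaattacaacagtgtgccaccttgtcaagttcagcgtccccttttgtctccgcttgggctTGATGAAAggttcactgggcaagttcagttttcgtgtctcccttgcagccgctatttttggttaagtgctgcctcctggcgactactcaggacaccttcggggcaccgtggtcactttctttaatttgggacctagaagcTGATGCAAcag
Slc1a1: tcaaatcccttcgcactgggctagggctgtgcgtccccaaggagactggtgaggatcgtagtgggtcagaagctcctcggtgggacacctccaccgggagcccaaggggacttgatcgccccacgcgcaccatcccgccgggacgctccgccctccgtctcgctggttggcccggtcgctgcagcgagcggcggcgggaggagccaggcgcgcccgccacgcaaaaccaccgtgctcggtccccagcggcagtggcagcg
Slc43a2: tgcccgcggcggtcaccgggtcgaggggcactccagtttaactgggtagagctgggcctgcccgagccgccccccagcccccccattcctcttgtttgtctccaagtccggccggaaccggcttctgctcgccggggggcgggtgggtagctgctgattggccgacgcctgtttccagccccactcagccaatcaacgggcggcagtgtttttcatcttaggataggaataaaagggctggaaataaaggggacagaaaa
A match is a description of letters and does not show that a factor binds there. The part of ATF4 in the transporter changes was not tested.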

How the data were processed

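RNA of 7 positive and 7 negative libraries was measured by sequencing of polyadenylated RNA with a directional kit, per the labels' protocols. Subread and featureCounts were used with GRCm38, per the submitters' processing notes. The sources used here give no versions, annotation or strand setting, so reads shared by overlapping genes cannot be assigned to 1 of them. The authors deposited unnormalised counts, 1 whole number per gene and library, and no other unit was used. The 58 members all matched 1 gene of GENCODE M21, which gave coordinates and exon lengths, and promoter windows came from RefSeq (GRCm38.p6).

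Counts were tested with edgeR 4.0.16 in R 4.3.3: filterByExpr (16350 genes kept), TMM scaling, robust dispersions and the two-sided quasi-likelihood test with group as the only term, with p adjusted over all genes by Benjamini-Hochberg and called under 0.05. CPM used TMM-scaled library sizes. The steps were tested on simulated data. Alternatives were DESeq2 1.42.0, other scaling, no filter, left-out libraries and a replicate block. Before blocked calls were compared, same-numbered libraries deviated from their group means with correlations across genes of 0.203 to 0.541, while unlike numbers gave a median of −0.125. On this ground, and from the numbers in the titles, libraries were treated as pairs, although no label ties a number to shared animals. Deviations from a group mean cancel out within the group, so the correlations of like and unlike numbers are not independent. Calls are those with group only unless the block is named.

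Members and lists were chosen with earlier results of these data known. Values were given for members called in either fit, the most read member of each family, Slc38a9 and Slc3a2. Of each companion list they were given for up to 4 genes called with group only, taken by the largest changes. Slc7a1 and, from the ATF4 list, Trib3, Psat1, Asns and Atf4 were given outside this rule.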

Additional observations from a re-analysis of the deposited data

Results flagged for a closer look

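The 20 named transporters gave 40 groups of 7 libraries, positive and negative. In 5 of them the highest or lowest library lay far from the others. Chance gives about 5% for independent and normally distributed values. The groups share libraries and some genes have low counts, so an excess over chance cannot be read from this. All 5 flagged values were in negative libraries. Slc43a3 had 2.58 CPM in negative library 3, and the next had 0.522 CPM. Slc1a5 had 17.7 CPM in the same library, and the next had 10.5 CPM. Slc7a8 had 178 CPM in negative library 1, and the next had 147 CPM. Slc1a1 had 0.950 CPM in negative library 7, and the next had 0.427 CPM. Slc36a4 was lowest, at 51.3 CPM, in negative library 1, and the next had 65.3 CPM. Negative library 3 was also the one with 1466 CPM of pericyte and fibroblast markers. Positive library 3 had the highest positive sum of those markers, 252 CPM, and the lowest positive values of Slc43a3 and Slc1a5, 2.50 and 11.2 CPM. The part of those markers in the values of Slc43a3 and Slc1a5 was not tested.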

How the results depend on the processing

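Pairing the libraries by replicate number moved most counts. With the replicate block, 3200 of all genes were called (1930 higher, 1270 lower), against 1313 (1047 higher, 266 lower) with group only. Transporters called higher were 13 against 4, and called genes were 4 against 1 among other transporters, 9 against 3 for mTORC1 sensing, 16 against 1 for the ATF4 response and 4 against 1 in metabolism. Transporters called lower stayed at 3. DESeq2 gave 499 lower genes over all, 7 higher transporters (adding Slc1a5, Slc7a3 and Slc7a7) and 3 genes of the ATF4 list. With no filter on low counts, mTORC1 sensing had 1 call and metabolism 2.

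Without the 4 libraries numbered 6 and 7, 581 genes were called (536 higher, 45 lower), with 2 transporters higher and 1 lower, 0 of the mTORC1 and 0 of the ATF4 list. With the block and without them, 514 genes were lower, 9 transporters higher, and 2, 5, 13 and 2 genes of the other transporter, mTORC1, ATF4 and metabolism lists were called. Leaving out 1 library at a time, calls over all genes ranged from 965 to 1883 (825 to 1267 higher, 140 to 616 lower, the last without negative library 3). Transporters higher ranged from 4 to 6 and lower from 2 to 3, other transporters from 1 to 2, mTORC1 sensing from 0 to 3, the ATF4 list from 1 to 2, and metabolism stayed at 1. With the block and without 1 number, the ranges were 2174 to 3849 (1411 to 2116 higher, 752 to 1733 lower), 10 to 13, 2 to 3, 3 to 4, 5 to 9, 11 to 15 and 2 to 6. The cause was not tested. The fits that combine the block with left-out libraries were chosen after seeing the data.

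Signs turned only near 0. Slc36a4 ranged from −0.046 to 0.041 without 1 library and from −0.018 to 0.063 with the block without 1 number. Slc6a6 ranged from −0.041 to 0.047 and from −0.011 to 0.03, and was −0.00476 with no filter. Of 560 alternatives of named transporters, 449 kept direction and side of the threshold, 19 lost a call, 78 gained one and 14 changed sign. No scaling moved the median of all genes by over 0.1. Transporters under the filter had too few counts for a fold.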
